A study of Mus musculus with 2 samples.

Results

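The 8 genes Mapt, Map1a, Map1b, Map2, Map4, Map6, Dcx and Dclk1 code for microtubule-associated proteins and were chosen by their symbols, out of 55536 genes in the tables. All 8 were found, each with 1 gene identifier, and together they hold 93 annotated transcripts. They were measured by total RNA sequencing, after reduction of ribosomal RNA, in the left cerebral cortex of female B6CASTF1/J mice aged 14 days, a first-generation cross of a C57BL/6 and a CAST strain. The 2 libraries form 1 group, replicate 1 and replicate 2, each made from 300 ng of RNA with ERCC spike-ins (synthetic transcripts), and there was no treatment or second condition. The description of both libraries mentions 3 females, the tissue entry of replicate 2 mentions a female, and the number of mice behind each library remains unknown here. The p-values below compare these 2 libraries and not conditions.

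Microtubules are hollow tubes of tubulin that fill the axons and dendrites of neurons and serve as tracks for transport. Structural microtubule-associated proteins bind along their length, stabilise or space them, and differ between axons and dendrites and with age. Tau (Mapt), MAP2 and MAP4 bind through a row of short repeats near the C-terminus. MAP1A and MAP1B are larger proteins that are cut into a heavy and a light chain, MAP6 (STOP) makes microtubules resistant to cold, and doublecortin and its relative Dclk1 bind between protofilaments through doublecortin domains.

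Genes received 33362704 expected counts in replicate 1 and 32013997 in replicate 2. All 7 markers of cortical excitatory neurons were above 1 TPM (TPM, a share of transcripts scaled to the same total in each library) and summed to 3278 and 3054 TPM. The libraries stood apart in other markers: 10 markers of myelinating oligodendrocytes summed to 1401 TPM in replicate 1 and 778 in replicate 2, 7 striatal markers to 287 and 179, 6 markers of choroid plexus to 3.00 and 8.60, and 5 erythroid markers to 846 and 1264. Of the choroid plexus markers, 2 of 6 were under 1 TPM in both libraries. By the test described below, 9 of 10 and 7 of 7 of the first pair of lists were lower in replicate 2, and 6 of 6 and 5 of 5 of the last pair were higher. Of all genes, 11.4% were called lower and 8.88% higher. In bulk tissue, fewer cells of a type and less RNA per cell cannot be told apart.

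All levels below are in TPM, which divides by transcript length so that genes can be compared within a library. Each library was quantified by the authors in 2 ways, called here the first quantification (gene and transcript tables from a transcriptome alignment) and the second quantification (a transcript table made from the reads). Dclk1 was highest in the first, with 524.5 TPM in replicate 1 and 502.6 in replicate 2, and Map2 followed with 426.3 and 461.8. Map1b stood at 318.1 and 328.3 TPM and Map1a at 250.8 and 233.3. Map4 stood at 182.3 and 178.7 TPM, Mapt at 154.0 and 156.2 and Map6 at 92.1 and 90.1. Dcx was far below the rest, at 19.2 TPM in replicate 1 and 26.4 in replicate 2. The means were 514 ± 15.5 TPM for Dclk1, 444 ± 25.1 for Map2, 323 ± 7.21 for Map1b, 242 ± 12.4 for Map1a, 180.5 ± 2.61 for Map4, 155 ± 1.55 for Mapt, 91.1 ± 1.46 for Map6 and 22.8 ± 5.11 for Dcx (SD, n = 2). No pair of neighbours in this order had overlapping library values, but an exact permutation test over 2 libraries cannot go below p = 0.5. Among 22015 nuclear protein-coding genes, Dclk1 ranked 64 and 66 in the 2 libraries, Map2 93 and 75, and Dcx 5710 and 4558.

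In the second quantification all 8 genes had higher TPM values, and the order of the first 2 was turned. Map2 stood there at 758.3 TPM in replicate 1 and 869.7 in replicate 2, above Dclk1 at 688.9 and 671.0. The ratio to the first quantification was 1.83-fold for Map2, 1.67-fold for Map4 and Map6, and between 1.32-fold and 1.41-fold for the other 5 genes. The other 6 genes kept their places. When only transcripts of 1000 bases or more were counted, an alternative chosen after seeing the data, the mean of Dclk1 was above that of Map2 in both quantifications, at 408 ± 23.2 against 382 ± 19.2 TPM in the first. Their libraries then overlapped, with Dclk1 at 424.5 and 391.6 TPM and Map2 at 368.6 and 395.7. Mapt (129.7 ± 2.33 TPM) and Map4 (129.1 ± 4.00 TPM) also overlapped. The order of Dclk1 and Map2 thus depended on the quantification.

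**Figure D1:**
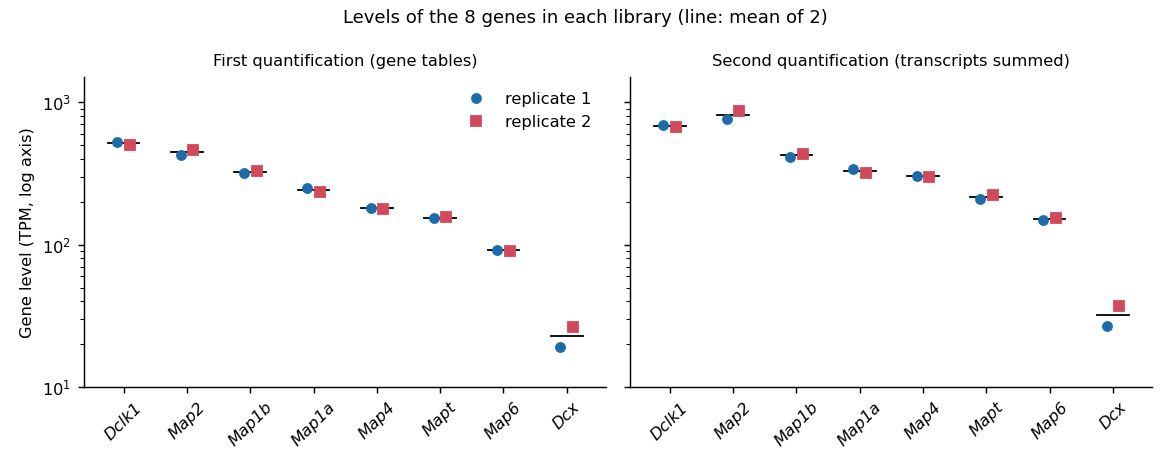
Level of each gene in TPM on a log axis, in the first quantification (left) and the second (right), with circles for replicate 1, squares for replicate 2 and a line at their mean. Genes are ordered by the first quantification. Dclk1 and Map2 change places on the right, and Dcx lies lowest in both.

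Mapt (ENSMUSG00000018411.17, chr11:104231390-104332090, plus strand, mm10) codes for tau, the main microtubule-associated protein of axons. The N-terminal part of tau varies by a pair of insert exons of 87 bases each, giving forms called 0N, 1N and 2N by the number of inserts. They lie at chr11:104287123-104287209 and chr11:104289908-104289994 on the plus strand of mm10, are both coding, and are shown because the 0N and 2N transcripts differ by exactly these bases within the coding sequence. They have the same length but share only 30 of 87 bases.
First insert: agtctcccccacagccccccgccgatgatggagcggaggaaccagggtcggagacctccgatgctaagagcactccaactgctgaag
Second insert: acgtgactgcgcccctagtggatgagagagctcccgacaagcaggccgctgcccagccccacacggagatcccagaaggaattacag
Tau transcripts without either insert (0N, 5 transcripts) took 74.3% of Mapt TPM in replicate 1 and 74.2% in replicate 2. The 2N transcript Mapt-201 took 10.2% and 10.3%. The 0N form therefore exceeded the 2N form 7.24-fold ± 0.0826 in the first quantification (SD, n = 2) and 5.15-fold ± 0.390 in the second. The 1N form took 12.1% ± 1.05 in the first quantification and was listed at 0 in the second, and in the first it rested almost wholly on Mapt-207, an annotated fragment of 293 bases at 19.1 and 16.4 TPM. Transcripts with the exon of big tau, a form known from peripheral neurons, took 0.907% ± 0.292. This exon has 759 bases in Mapt-203, which took 0.651% ± 0.0704, and 711 bases in Mapt-202. The 0N transcript Mapt-204 alone was at 110.9 and 113.0 TPM, and its annotated last exon has 4119 bases against 248 in the 2N transcript. Reads that lie only in the longer exon cannot be assigned to the 2N transcript. How far this sets the proportion of the forms was not tested.

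Map2 (ENSMUSG00000015222.17, chr1:66175273-66442583, plus strand) codes for the main structural protein of dendritic microtubules. Its high-molecular-weight forms MAP2A and MAP2B hold a coding exon of 3741 bases (chr1:66412407-66416147), and the short forms MAP2C and MAP2D join across it; short MAP2 is known as the juvenile form. The long form was taken as every transcript with this exon, a part of it, or a neighbouring exon that all annotated coding transcripts of the short form also skip. It stood at 219.9 TPM in replicate 1 and 232.0 in replicate 2, and the short form at 159.3 and 176.6. The long form exceeded the short form 1.35-fold ± 0.0468 in the first quantification (SD, n = 2) and 1.58-fold ± 0.0362 in the second, in both libraries each time. As shares of Map2 TPM this was 50.9% ± 0.945 long and 37.8% ± 0.613 short in the first quantification and 44.6% ± 2.03 and 28.2% ± 0.639 in the second, where transcripts that can be placed in neither form took 27.2% ± 2.67. Among the latter, Map2-218, a coding fragment of 546 bases, held 6.31% of Map2 TPM in the first quantification and 20.4% in the second.

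The single transcript with a full long coding sequence, Map2-204 (5484 coding bases), was at 185.9 and 190.4 TPM. Its annotated last exon has 397 bases, while the short transcripts Map2-201 and Map2-202 have last exons of 3790 and 3792 bases. Reads that lie only in those longer last exons cannot be assigned to Map2-204, and the part this plays in the ratio was not tested. The 2 short transcripts have coding sequences of the same length, 1401 bases, and the quantifications divided them in opposite ways. Map2-201 took 30.2% ± 1.19 of Map2 TPM in the first and 0.000511% in the second, and Map2-202 took 3.37% ± 0.151 and 23.5% ± 0.736. Only their sum is used here.

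**Figure D2:**
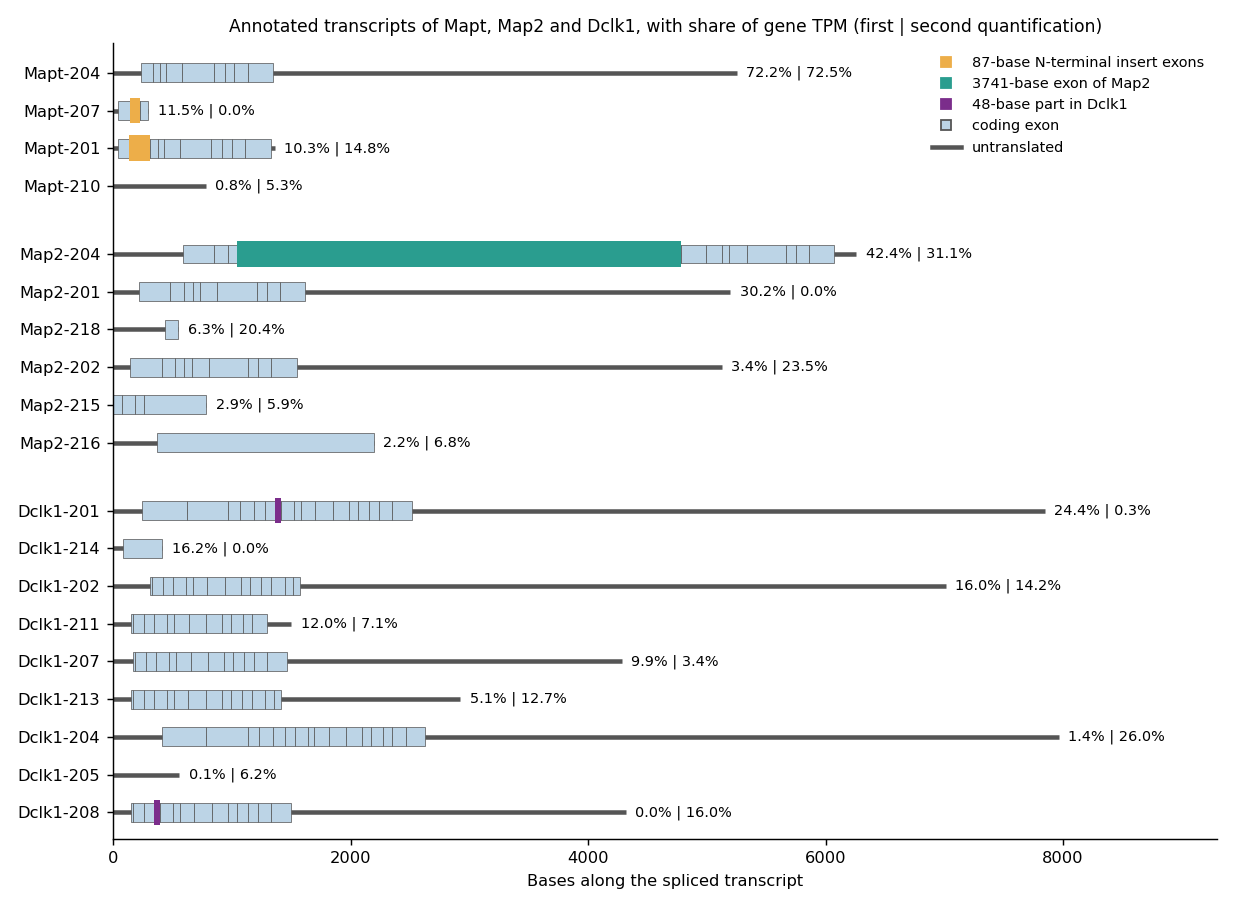
Annotated transcripts of Mapt, Map2 and Dclk1 drawn along their spliced length in bases, with coding exons as boxes, untranslated parts as a line, and the named exons in colour; the percentages are each transcript's mean share of its gene's TPM in the first and the second quantification. The long Map2-204 and the 2N Mapt-201 end soon after their coding part, and the pairs Map2-201 and Map2-202, Dclk1-201 and Dclk1-204, and Dclk1-207 and Dclk1-208 trade places between the quantifications.

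Map4 (ENSMUSG00000032479.15, chr9:109931460-110083955, plus strand) codes for the most widely expressed member of this family, found in many dividing and non-neuronal cells as well. Full-length transcripts of Map4, with the first coding exon and the repeat region, took only 9.53% of its TPM in replicate 1 and 9.25% in replicate 2. Map4-206 and Map4-209 end early at an alternative last exon, before the repeat region, and took 44.2% and 44.8%. Map4-206 codes for 297 bases only, at 43.6 and 44.5 TPM, and Map4-209 is noncoding, at 37.0 and 35.6 TPM. A further 28.1% ± 1.03 came from transcripts with a long internal first exon, led by Map4-204 at 47.3 and 44.2 TPM. In the second quantification the early-ending pair took 37.8% ± 0.00506 and the full-length transcripts 9.36% ± 0.113, so that full-length Map4 was the smaller portion in both. In expected counts, which follow transcript length, Map4-204 had 40.2% and Map4-206 26.8% in the first quantification, against 29.6% and 30.5% in the second. The full-length transcripts had 17.6% of the counts in the first quantification and 21.6% in the second. The early-ending pair had 32.4% and 33.7%.

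Map2 and Map4 each have a coding exon of 93 bases that adds a microtubule-binding repeat. The exons are printed from the GENCODE M21 transcripts on mm10, because the genes use them in opposite proportions. The Map2 exon lies at chr1:66431527-66431619 and the Map4 exon at chr9:110072613-110072705, both on the plus strand. Capitals mark the 59 of 93 bases that are the same in both genes.
Map2: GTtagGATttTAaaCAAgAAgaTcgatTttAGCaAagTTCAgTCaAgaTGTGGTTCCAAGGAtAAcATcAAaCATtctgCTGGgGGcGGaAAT
Map4: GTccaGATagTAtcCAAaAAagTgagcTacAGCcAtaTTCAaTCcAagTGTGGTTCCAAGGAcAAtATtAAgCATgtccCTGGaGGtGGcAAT
Use of the exon can be read from the annotated transcripts where some hold it and some join across it. For Map2, 4 transcripts held the exon and 7 joined across it. Transcripts that held it took 2.74% in replicate 1 and 2.47% in replicate 2 of the Map2 TPM that could be decided, a mean of 2.61% ± 0.188 (SD, n = 2), and 3.53% ± 0.0839 in the second quantification. For Map4 the proportion was the other way round: 8 transcripts held the exon and 2 joined across it, and holders took 94.1% and 94.3% of the decidable TPM, or 86.5% ± 0.722 in the second quantification. Transcripts that do not reach the exon were left out of these shares. They held 16.9% ± 1.39 of all Map2 TPM in the first quantification and 40.7% ± 2.85 in the second. For Map4 they held more, 52.6% ± 1.83 and 58.8% ± 0.815. The exon was thus joined across in nearly all decidable Map2 TPM and held in most decidable Map4 TPM, in both libraries and both quantifications.

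Map1b (ENSMUSG00000052727.6, chr13:99421446-99516540, minus strand) codes for MAP1B, the form that prevails in growing axons, and Map1a (ENSMUSG00000027254.13, chr2:121289600-121310832, plus strand) for MAP1A, which prevails in mature dendrites. Map1b exceeded Map1a 1.27-fold in replicate 1 and 1.41-fold in replicate 2 on the TPM scale, a mean of 1.34-fold ± 0.0984 (SD, n = 2), and 1.29-fold ± 0.101 in the second quantification. The Map1b coding transcript Map1b-201 held 83.6% ± 0.141 of Map1b TPM. Noncoding transcripts of Map1b took 14.6% ± 0.263 in the first quantification and 10.8% ± 0.0491 in the second. The 2 tables disagreed on which: Map1b-206 held 8.68% in the first and was listed at 0 in the second, while Map1b-202 held 4.62% and 10.8%. Map1a was divided between coding starts. The transcript with the downstream start, Map1a-202, was at 203.9 and 189.1 TPM, and that with the upstream start, Map1a-201, at 45.9 and 40.1. The downstream start exceeded the upstream 4.58-fold ± 0.195 in the first and 4.80-fold ± 0.151 in the second quantification, the smallest relative change between quantifications among the 5 pairs of forms compared. Both transcripts were lower in replicate 2, with deposited TPM intervals (of unstated level) that did not overlap. For Map1a-201 the intervals nearly met, with a lower bound of 41.9 in replicate 1 and an upper bound of 41.6 in replicate 2. The TPM of Map1a-202 lay above its own interval in both libraries (193.9 to 201.0 in replicate 1, 179.2 to 186.5 in replicate 2).

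Map6 (ENSMUSG00000055407.14, chr7:99267447-99337137, plus strand) codes for the STOP proteins, which have neuronal and other forms. Transcripts with all 4 exons stood at 55.6 TPM in replicate 1 and 56.4 in replicate 2, and the transcript that ends in an extension of exon 3, Map6-204, at 19.6 and 21.8. The 4-exon transcripts exceeded it 2.72-fold ± 0.175 in the first quantification (SD, n = 2) and 2.41-fold ± 0.195 in the second. The 4-exon transcripts Map6-205 and Map6-201, of 3431 and 3430 bases with the same coding length, cannot be told apart: in replicate 1 their deposited intervals ran from 8.60 to 46.4 and from 5.93 to 44.6 TPM. Map6-202, which skips exon 3, was at 13.3 and 8.21 TPM, with deposited intervals that overlapped between the libraries. A noncoding fragment, Map6-209, was listed at 0 in the first quantification and took 17.1% ± 2.14 of Map6 TPM in the second.

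Dcx (ENSMUSG00000031285.14, chrX:143855842-143933311, minus strand) codes for doublecortin, which is present in migrating and newly differentiating neurons and falls as they mature. The main transcript Dcx-201 was at 11.7 TPM in replicate 1 and 15.8 in replicate 2, and Dcx-204, with a shorter 3′ end, at 4.83 and 5.98. Coding transcripts took 87.1% and 84.8% of Dcx TPM, and intron-retaining ones, Dcx-206 and Dcx-205, the remaining 12.9% and 15.2%. Dcx-206 was at 1.47 and 2.67 TPM and its deposited intervals did not overlap, nor did those of Dcx-201. Shares of the forms were nearly the same in the second quantification, with 86.5% ± 1.77 coding.

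Dclk1 (ENSMUSG00000027797.15, chr3:55242364-55539068, plus strand) codes for a relative of doublecortin that carries a protein kinase domain. It has a start that gives proteins with doublecortin domains and, 214.9 kb downstream, a start that gives kinase proteins without them. Transcripts from the doublecortin start stood at 248.8 TPM in replicate 1 and 261.4 in replicate 2, and those from the downstream start at 267.1 and 233.6. The starts were thus near parity in the first quantification, the downstream start being higher in replicate 1 and lower in replicate 2, with a ratio of 0.983 ± 0.127 (SD, n = 2). In the second quantification the downstream start was higher in both libraries, with a ratio of 1.96 ± 0.236. Both shares moved between the quantifications: the doublecortin start took 49.7% of Dclk1 TPM in the first and 31.2% in the second, and the downstream start 48.7% and 60.8%. Dclk1-214, an annotated fragment of 413 bases from the doublecortin start, held 16.2% ± 1.19 in the first quantification and 0 in the second. Transcripts with the doublecortin start and the kinase exons were close in both, at 25.8% ± 0.621 and 26.3% ± 1.46. The transcript that has the doublecortin start but ends before the kinase exons took 3.73% ± 0.425 and 1.61% ± 0.530. Transcripts with the doublecortin start alone exceeded all Dcx transcripts 13.0-fold in replicate 1 and 9.90-fold in replicate 2, and 6.72-fold ± 1.11 in the second quantification.

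An exon of Dclk1 that is used from both starts has an alternative end that adds 48 coding bases. They are shown at chr3:55477860-55477937 (plus strand, mm10) in capitals after the 30 bases before them, since they are the largest coding difference between transcripts that the quantifications divided differently (Dclk1-201 and Dclk1-204 also differ by 97 against 94 bases in exon 14 and in their first and last exons).
Dclk1: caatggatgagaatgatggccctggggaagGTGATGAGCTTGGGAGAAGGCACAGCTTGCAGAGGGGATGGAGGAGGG
Transcripts with the 48 bases took 33.4% ± 1.81 of the TPM of transcripts with this exon in the first quantification (SD, n = 2) and 19.6% ± 0.106 in the second. The quantifications placed them on different transcripts. In the first they came from Dclk1-201, from the doublecortin start, at 125.7 and 124.5 TPM, while its counterpart without them, Dclk1-204, was at 7.11 and 7.22. In the second Dclk1-204 was at 171.4 and 182.3 TPM and Dclk1-201 at 2.91 and 1.34. For the downstream start the exchange ran the other way, from Dclk1-207 (9.89% in the first, 3.44% in the second) to Dclk1-208 (0.0391% and 16.0%). In replicate 1 the first quantification gave Dclk1-208 a TPM of 0.410 beside its own deposited interval of 14.4 to 39.1, and Dclk1-207 a TPM of 49.5 beside an interval of 8.24 to 36.0. Which start the 48 bases go with cannot be read from these tables.

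**Figure D3:**
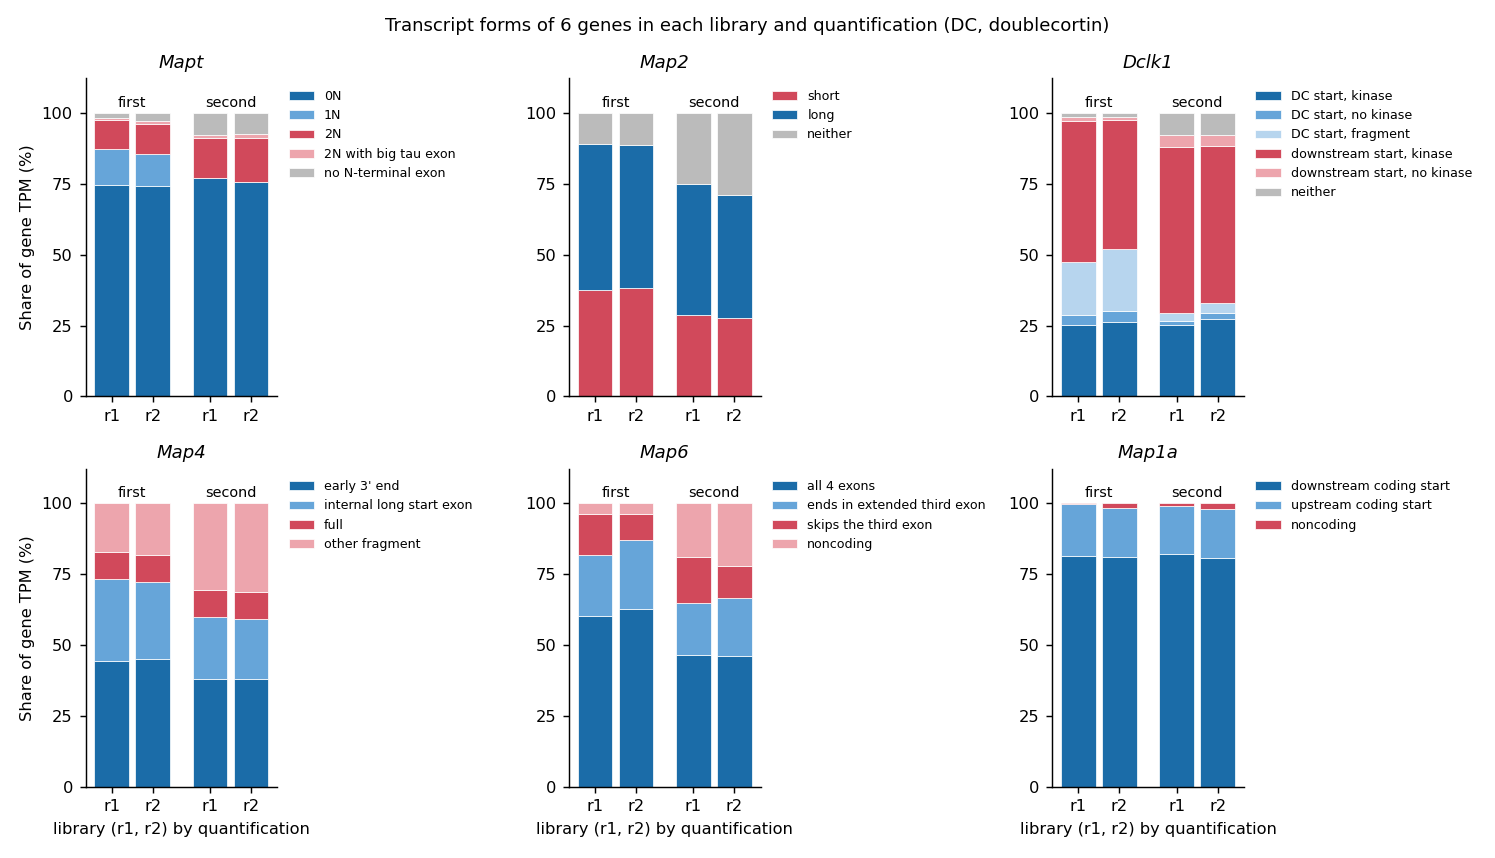
Share of each form in the TPM of its gene, in percent, for 6 genes; bars are replicate 1 (r1) and replicate 2 (r2) in the first and in the second quantification, and colours are defined per gene. The Mapt 1N form is at 12.1% in the first and 0 in the second quantification, the Dclk1 doublecortin-start forms sum to 49.7% and 31.2%, and Map6 transcripts that skip exon 3 differ between the libraries (14.4% and 9.12% in the first).

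Over the 8 genes, 42 of 93 transcripts held 5% or more of their gene's TPM in at least 1 quantification, 30 in the first, 35 in the second and 23 in both. Of the 42, 38 had a mean of 1 TPM or more in the first quantification. Of the 38, 6 had deposited intervals that did not overlap between the libraries (Map1a-201, Map1a-202, Map1b-201, Dcx-201, Dcx-206 and Dclk1-211); over all 38520 transcripts with a mean of 1 TPM or more this held for 7.22%. Dclk1-211, a transcript of 1499 bases from the downstream start, was at 76.2 TPM in replicate 1 and 47.8 in replicate 2. A TPM outside its own deposited interval was found for 7 of the 38, 3 of them in Dclk1, against 6.42% of all those transcripts.

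The libraries were compared gene by gene with an exact binomial test on the counts, scaled by TMM, which takes counting error alone. At an adjusted p under 0.05 it called 20.3% of 18887 genes, 8.88% higher and 11.4% lower in replicate 2. Of the 8 genes, 6 were called, Dcx and Map2 higher and Map1a, Map1b, Map4 and Dclk1 lower in replicate 2. Calls at this error model follow depth: among the 2726 genes with at least as many counts as Dcx in replicate 1, 52.8% were called. With an assumed dispersion of 0.01 between libraries, which is not measured here, edgeR's exact test called 0.964% of genes (0.529% higher and 0.434% lower) and 0 of the 8, with 0 of 8 also at an unadjusted p under 0.05. In the second quantification Map2 was not called (adjusted p of 0.381 by the exact binomial test), and the Map1b call turned with the scaling as given below. The differences of Dcx, Map1a, Map4 and Dclk1 exceeded counting error in both quantifications and under each scaling, but none was shown to be larger than the spread between mice.

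Dcx had the largest difference, with 2540 counts in replicate 1 and 3321 in replicate 2. Its log2 ratio was 0.39 ± 0.038 (counting SE), which is 1.31-fold, with an adjusted p of 1.01e-22 by the exact binomial test; over the alternatives the adjusted p ran from 7.22e-30 to 0.994. Only 0.697% of the genes with at least its counts had a log2 ratio as high. Beside this, 3 of 10 markers of immature neurons were called higher and 0 lower in replicate 2, where 8.88% of all genes were called higher and 11.4% lower. The median log2 ratio of this list was 0.05, with summed levels of 1204 and 1287 TPM and 1 of 10 under 1 TPM. Of 12 markers of subventricular neuroblasts and olfactory bulb interneurons, 3 were called higher and 1 lower, against the same shares of all genes. Their median log2 ratio was 0.11, with sums of 98.8 and 105.8 TPM and 1 of 12 under 1 TPM. Markers of choroid plexus, low in both libraries, were higher in replicate 2 as given above. The part of such cells in the Dcx difference was not tested.

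Map1a fell the most, from 55531 to 48715 counts, by 0.19 ± 0.0090 on the log2 scale (counting SE; exact binomial test, adjusted p of 3.29e-95, and from 3.43e-113 to 1.00 over the alternatives). Dclk1 had 48125 and 44239 counts (log2 ratio -0.12) and Map4 12000 and 11088 (log2 ratio -0.11). Map2 had 43828 and 44715 counts, a log2 ratio of 0.03, and Map1b 68867 and 67847 counts, a log2 ratio of -0.02. Mapt, with 12923 and 12649 counts, had a log2 ratio of -0.03 and an adjusted p of 0.264, and Map6, with 7006 and 6748 counts, had -0.05 and 0.119. All 8 log2 ratios other than that of Dcx thus lay between -0.19 and 0.03, within the range from the 5th to the 95th percentile of all genes (-0.35 to 0.45). That range includes genes with few counts. The ratio of Dcx also lay within it, although only 0.697% of genes with at least its counts had a ratio as high. The median log2 ratio of those genes was -0.06. Scaling by total gene counts or by ERCC spike-ins, which shifts the median of all genes from 0.00 to 0.06 and 0.05, turned the calls of all genes from 1678 higher and 2152 lower to 2733 and 1145, and 2570 and 1229. It also turned Map1b to a call in the other direction (log2 ratio 0.04 and 0.03). Myelinating oligodendrocyte, striatal and excitatory neuron markers were lower in replicate 2, with median log2 ratios of -0.88, -0.77 and -0.16. Of the excitatory neuron markers, 6 of 7 were called lower, against 11.4% of all genes. Among genes with at least the counts of Dcx, 52.8% were called in either direction. With the assumed dispersion, edgeR's exact test called 0 of these 7 markers lower, where 0.434% of all genes were. It called 9 of 10 myelinating oligodendrocyte and 4 of 7 striatal markers lower. The part of oligodendrocytes, striatal cells and excitatory neurons in the differences of Map1a, Dclk1 and Map4 was not tested.

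**Figure D4:**
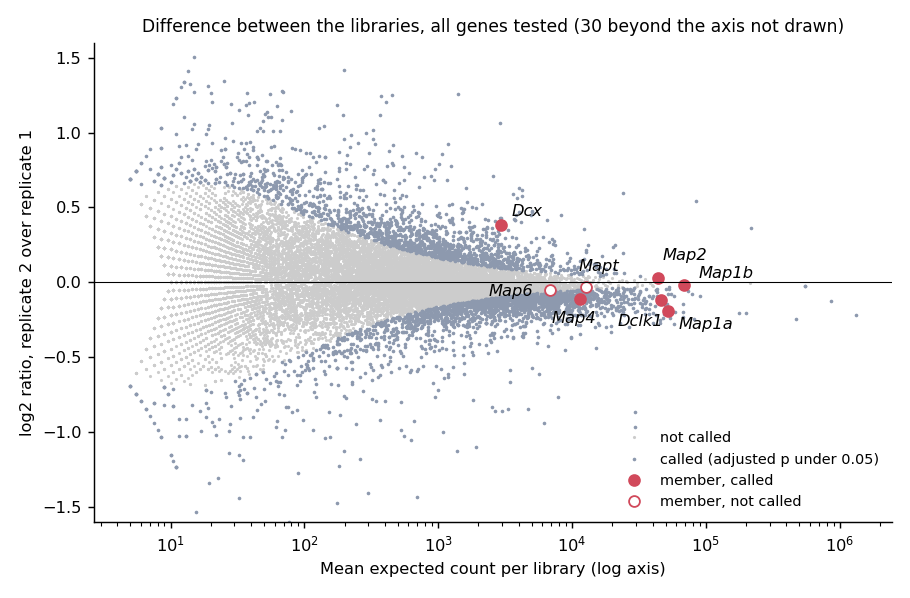
The log2 ratio of replicate 2 over replicate 1 against the mean expected count per library (log axis) for all genes tested, grey where not called and blue-grey where called, with the 8 genes as red circles, filled where called. Dcx lies at 0.39, and the other 7 lie between -0.19 and 0.03.

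Other genes that act on microtubules or on these proteins were taken from 5 lists of 81 genes in all, of which 80 were tested. Of these, 31 were called, 14 higher and 17 lower in replicate 2, where 20.3% of all genes and 52.8% of those with at least the counts of Dcx were called. The median log2 ratio was -0.00, against 0.00 over all genes; edgeR's exact test with the assumed dispersion called 0 of 80, and 1 at an unadjusted p under 0.05. Of 16 other structural proteins tested, 1 was called higher and 3 lower. The highest were Dpysl2 (CRMP2), which binds tubulin dimers in growing axons, at 324.9 and 333.8 TPM, and its relative Crmp1 at 163.9 and 177.9. Dpysl3, also of this family, was called higher (66.5 and 87.2 TPM, log2 ratio 0.29), and Map6d1, a relative of Map6, lower (23.5 and 20.6 TPM, log2 ratio -0.25).

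Of 15 proteins that bind microtubule ends, 2 were called higher and 4 lower. Clip3, a CLIP-170-related protein, was at 249.6 and 238.1 TPM and was called lower, with a log2 ratio of -0.14, and Nav3 was lower by a log2 ratio of -0.22 (139.7 and 118.5 TPM). Mapre2, the end-binding protein EB2, was at 140.0 and 145.9 TPM and was not called. Of 10 destabilising and severing proteins, 1 was called in each direction. The tubulin-binding stathmins Stmn1 (559.3 and 580.3 TPM) and Stmn2 (461.8 and 490.2 TPM) were not called; Stmn1 stood above all 8 genes in both libraries, and Stmn2 above all but Dclk1. Stmn4 was lower (log2 ratio -0.16). Fign, the severing enzyme fidgetin, was called higher from 133 and 233 counts (log2 ratio 0.74) although its TPM was 1.44 in both, so its call holds on counts and not on TPM.

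Of 19 kinases and phosphatase subunits that act on these proteins, 9 were called lower and 0 higher in replicate 2, with a median log2 ratio of -0.07. Of all genes, 11.4% were called lower and 8.88% higher. Among the genes with at least the counts of Dcx in replicate 1, the median log2 ratio was -0.06 and 52.8% were called in either direction. The list is thus near genes of that depth in its median and its share of calls. Cdk5r2, the p39 activator of Cdk5, which phosphorylates tau and doublecortin, was at 284.5 and 267.7 TPM (log2 ratio -0.15). Ppp2r2c, a regulatory subunit of the phosphatase PP2A, was at 222.9 and 215.5 TPM (log2 ratio -0.11), and the tau kinase Gsk3a at 103.1 and 95.1 (log2 ratio -0.18). Of 20 splicing factors reported to act on Mapt transcripts, 10 were called higher and 0 lower, with a median log2 ratio of 0.12, against the same shares of all genes. Their share of calls is near the 52.8% of genes with at least the counts of Dcx. Some of these factors had fewer counts, such as Tra2a with 1083 in replicate 1. With the assumed dispersion, edgeR's exact test called 0 of the 20. In the second quantification 9 of the splicing factors were called higher and 1 lower. Celf2 was at 201.3 and 226.2 TPM and Celf4 at 199.5 and 220.6. The largest differences were those of Tra2a (24.6 and 31.5 TPM, log2 ratio 0.40) and Srsf7 (39.5 and 52.1 TPM, log2 ratio 0.30). With total gene counts as the scale, the splicing factors stood at 13 higher and 0 lower, whereas the kinases and phosphatase subunits went to 2 higher and 5 lower.

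**Figure D5:**
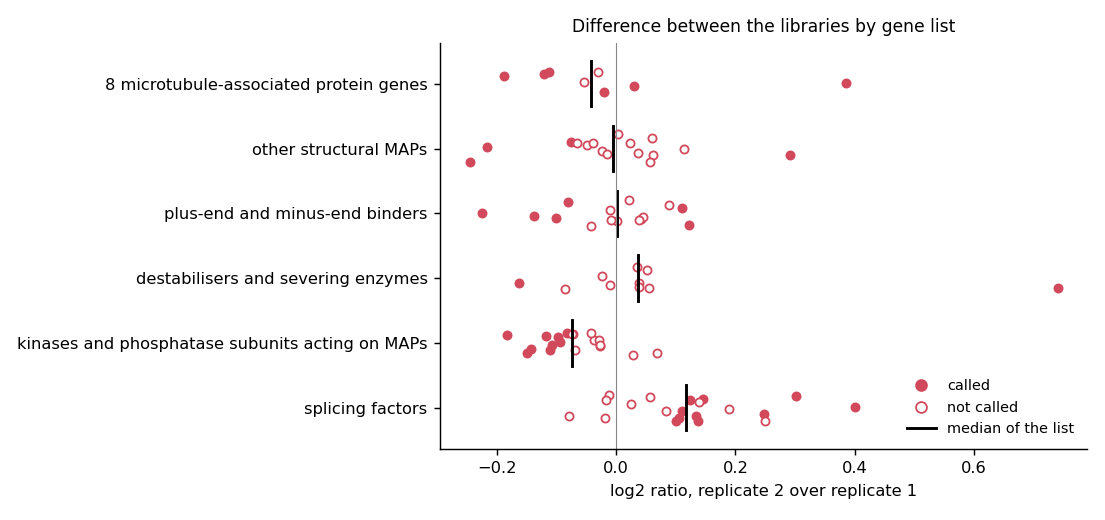
The log2 ratio of replicate 2 over replicate 1 for each tested gene of the 8 and of the 5 lists, filled where called, with a line at the median of each list. Medians run from -0.07 for kinases and phosphatase subunits to 0.12 for splicing factors.

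Some annotated genes overlap the 8. On the opposite strand, Ppip5k1 overlaps the end of Map1a and was at 36.1 and 39.6 TPM, and the other overlapping genes on the opposite strand had at most 1 count. Small genes annotated on the same strand within the bounds of the 8 had low counts: 5330431K02Rik in Map1b had 99 and 147 counts, Gm45591 in Map6 29 and 53, and Gm42608 in Dclk1 147 and 172. Whether counting used the strand is unstated, so reads of Map1a and Ppip5k1 in their overlap are uncertain.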

How the data were processed

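Per the README texts and file headers, the authors quantified each library on mm10 with GENCODE M21, in gene and transcript tables from a transcriptome alignment and in a second transcript table from the reads (tools and strand use: not given in the sources used here). The deposited expected counts (estimated reads per gene or transcript, per the file headers) are not normalised, and the authors scaled TPM over all rows of a table. Length minus effective length was 99 bases in the first tables and 341 and 347 in the second, so short transcripts are weighted differently. The 96 ERCC rows and 26249 other rows without a gene name (1.49e-05% and 1.51e-05% of counts) were left out. Symbols, exons and sequences came from GENCODE M21 (all 55536 gene identifiers matched). Forms were defined by annotated exons and starts; 1 item is not reported here. Rounded counts of genes with 10 or more in at least 1 library were compared by a two-sided exact binomial test with edgeR 4.0.16 TMM scaling and Benjamini-Hochberg adjustment; log2 ratios use CPM plus 0.5. On simulated data with counting error alone and 18887 genes, 64.0%, 68.0%, 90.0% and 100.0% of genes changed 1.5-, 2-, 4- and 8-fold were called, and 6 of 18687 unchanged ones. Alternatives were other scalings (DESeq2 1.42.0 size factors among them), no count minimum, the second quantification and an assumed dispersion. Named were the 8 genes, transcripts with 5% or more of a gene, and of each microtubule list the 2 highest genes and the 2 called with the largest ratios. The members and lists were chosen with earlier results of these data known.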

Additional observations from a re-analysis of the deposited data

How the results depend on the processing

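No paired analysis was possible because the libraries form 1 group. With an assumed dispersion of 0.01 the called genes fell to 182 from 3830, those of the 8 to 0 from 6, and the other microtubule genes to 0 from 31 (1 at an unadjusted p under 0.05 by edgeR's exact test), by a test that allows a wider spread; under the other scalings, without a count minimum and in the second quantification these 3 counts stayed within 1.5 times. Direction turned for Mapt with total counts (log2 ratio 0.0286) and ERCC scaling (0.0219), for Map1b with both (0.0380 and 0.0313) and for Map6 with total counts (0.00539). In the second quantification Map2 was no longer called (adjusted p of 0.381 by the exact binomial test) and Map6 was (0.0464). The median level of the 8 genes, 211 TPM, became 316 TPM in the second quantification, 435 TPM rescaled to nuclear protein-coding genes, and 186 TPM over transcripts of 1000 bases or more (an alternative chosen after seeing the data); it was 206 to 217 TPM leaving out either library. The Mapt 0N share, 74.3%, became 76.2% in the second quantification and 75.9% over protein-coding transcripts; the Map2 long share, 50.9%, became 44.6% and 53.2%; and the Dclk1 doublecortin-start share, 49.7%, became 31.2% in the second quantification; the cause of these moves was not tested. Leaving out a library of 2 moves a mean by less than 1 SD by construction, and the shares then ran from 74.2% to 74.3%, 50.2% to 51.6% and 47.4% to 52.0%. The number of transcripts at 5% or more was 30, with 21 by counts and 35 in the second quantification. With 2 libraries and no measured spread between mice, differences of this size between libraries cannot be carried over to other mice.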
